A study of Mus musculus with 24 samples.

Results

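A set of 41 genes of the cell cycle and of DNA replication was followed in 4 kinds of activated immune cell, B cells, CD4 T cells, dendritic cells and macrophages, taken from miR-155 KO and wild type (WT) mice. They were taken as a fixed list of gene symbols, and all 41 were found among the 20673 genes counted in each library. For the description they fall into 20 genes of mitosis, 16 genes of DNA replication and the G1/S transition, and 5 genes of the G1 phase, namely the D cyclins and their kinases. Messenger RNA was sequenced in 24 libraries, 3 for each of the 8 combinations of cell type and genotype, and a level is the CPM of edgeR, a gene's reads relative to the scaled size of its library.

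A dividing cell first commits to a new round in G1, when D cyclins and their partner kinases Cdk4 and Cdk6 phosphorylate the retinoblastoma family and free the E2F transcription factors. E2F then drives the genes of replication. Among these, Cdc6 and Cdt1 load the ring of Mcm2 to Mcm7, the replicative helicase, onto origins. Pcna is the sliding clamp of the polymerases, and Rrm1, Rrm2 and Tyms supply deoxynucleotides. Later, cyclins A and B, Plk1 and the Aurora kinases carry the cell through mitosis, and their genes are switched on in G2 through MuvB complexes, which bind the cell cycle genes homology region (CHR), and through the factor NF-Y. MiR-155 is a microRNA of activated lymphocytes and myeloid cells that pairs through its seed with matching sites in 3′ UTRs and lowers the transcripts that carry them.

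All mice were C57BL/6J, and the KO mice are labelled miR-155 KO with no further detail of the allele. Age and sex were not among the labels used here. KO and WT B cells were isolated from spleen by removing CD43-bearing cells and were activated with 25 µg/ml LPS and 6.5 ng/ml IL-4. KO and WT dendritic cells were spleen cells bound to CD11c beads from mice that had carried B16 melanoma cells making Flt3 ligand for about 2 weeks, and they were activated with GM-CSF at 20 ng/ml and LPS at 100 ng/ml. KO and WT macrophages were drawn from the peritoneum after thioglycollate and were activated with 100 ng/ml LPS. KO and WT CD4 T cells came from lymph node and spleen, lacked CD25 and CD44, and were activated through CD3 and CD28 by antibody-coated beads. Cell type, purification and stimulus change together, so a difference between cell types cannot be told apart from a difference between stimuli. The 3 libraries of a group are described as sequencing replicates, so the p-values measure how far such libraries spread, which may be technical variation.

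The libraries held 7428821 to 14219823 counts in genes. Each marker list summed highest in its own cell type. The 8 B cell markers summed to 3010 to 3410 CPM in the B cell libraries and to at most 45.2 CPM in the others. The 8 T cell markers summed to 2420 to 2620 CPM in the T cell libraries and to at most 34.5 CPM elsewhere. For the 10 macrophage markers it was 22200 to 27500 CPM and at most 282 CPM. For the 10 dendritic cell markers it was 11900 to 16100 CPM and at most 2530 CPM, but some were higher elsewhere. Itgax averaged 31.3 CPM in WT dendritic cells and 262 CPM in WT macrophages, and Sirpa 55.7 and 1410 CPM. H2-Ab1 averaged 347 CPM in WT dendritic cells and 1680 CPM in WT B cells. The melanocyte genes Mlana, Tyr, Tyrp1 and Slc45a2 were at 0 in every group. The counts cover coding genes, and the level of miR-155 itself was not analysed here, so the genotype labels were not checked against it. One library stood apart within its group. WT macrophage replicate 3 had 718 CPM of Mki67, where the other WT macrophage libraries had 358 and 296 CPM. Some KO differences in macrophages are given with and without it. Group means, and differences of single genes between macrophages and other cell types, are given with it. Over all genes tested, 59 were called up and 36 down between KO and WT macrophages, and 2746 in all without that library.

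MiR-155-5p is encoded on chromosome 16 (chr16:84714143-84714165, plus strand, GRCm38.p6, RefSeq). Its mature sequence is shown with the seed, bases 2 to 8, in capitals, because the seed decides which 3′ UTR sites it can pair with.
mmu-miR-155-5p: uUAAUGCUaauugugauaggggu

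Only 3 of the 41 genes held a perfect match to the seed of at least 7 bases in their longest annotated 3′ UTR (GENCODE M21, GRCm38). All 3 belong to the machinery that licenses replication origins: the helicase subunits Mcm2 and Mcm4 and the loading factor Cdt1. By comparison, 12.8% of the 20023 genes with a 3′ UTR held such a match. The sites searched were AGCATTAA (8mer), AGCATTA (7mer-m8), GCATTAA (7mer-A1) and GCATTA (6mer), on the transcript strand and with the longest form counted. Mcm2 and Mcm4 each held an 8mer, found in 3.11% of 3′ UTRs, and Cdt1 held 1 site of each 7mer kind. The 30 bases around each site are shown with the match in capitals, 5′ to 3′ on the transcript.
Mcm2 8mer, chr6:88883830-88883859, minus strand: gccaaggctgtAGCATTAAatgactattta
Mcm4 8mer, chr16:15623929-15623958, minus strand: aaagccattgtAGCATTAAatcttgtgtaa
Cdt1 7mer-A1, chr8:122572749-122572778, plus strand: cataaagtgctgGCATTAAgttgcttcctg
Cdt1 7mer-m8, chr8:122572855-122572884, plus strand: caaactactcaAGCATTAggtatggtcaag

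Among the 20 mitosis genes, 19 held no match of any kind and Cenpf held a 6mer. Gins2, Ccnd1 and Cdk6 also held a 6mer alone. A match is a description of the letters and does not show that the site was bound in these cells.

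The replication genes were set between KO and WT cells first, one cell type at a time, with edgeR's quasi-likelihood test over all genes and Benjamini-Hochberg adjustment (called at an adjusted p under 0.05). In KO cells Mcm2 rose in B cells, dendritic cells and CD4 T cells, and Cdt1 rose in B cells and dendritic cells. No other gene of the 41 was called up in any cell type. Mcm2 and Cdt1 are 2 of the 3 genes with a seed match of 7 or 8 bases, and the third, Mcm4, was not called. Whether the sites account for these calls was not tested.

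Mcm2 encodes a subunit of the replicative helicase. In B cells it stood at 491, 488 and 502 CPM in the KO libraries, against 399, 386 and 358 CPM in the WT libraries. The 2 groups did not overlap, and the log2 fold change was 0.37 ± 0.051 (SE, adjusted p = 0.000546). In dendritic cells the same gene had 42.2, 43.1 and 44.4 CPM in KO libraries, against 31.8, 32.7 and 34.9 CPM in WT libraries, a KO to WT ratio of 1.31 (log2 fold change 0.39 ± 0.088, adjusted p = 0.0109). Without KO replicate 3 the adjusted p in dendritic cells was 0.0582. CD4 T cells had 481, 488 and 468 CPM in KO libraries, against 420, 418 and 401 CPM in WT libraries. The difference there was smaller, with a log2 fold change of 0.22 ± 0.037 (adjusted p = 0.0117), and it was called in 8 of 12 alternative settings, but not without KO replicate 1 or 2, without WT replicate 2, or in the fit of all 24 libraries. In macrophages Mcm2 had 20.4, 20.9 and 20.3 CPM in KO libraries, against 19.2, 21.1 and 14.6 CPM in WT libraries. These groups overlapped, and the log2 difference of 0.20 was not called (adjusted p = 0.531).

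Cdt1, the factor that brings the helicase to origins and is destroyed once replication starts, showed the largest KO difference of the 40 members tested in B cells and of the 40 tested in dendritic cells. The KO dendritic cell libraries held 27.2, 25.2 and 23.6 CPM, against 11.1, 12.4 and 13.7 CPM in WT dendritic cells. This is a KO to WT ratio of 2.05 (log2 fold change 1.03 ± 0.12, adjusted p = 0.000263), and it was called in 12 of 12 alternative settings. In B cells Cdt1 stood at 112, 125 and 135 CPM in KO libraries, against 84.5, 98.2 and 93.3 CPM in WT libraries (log2 fold change 0.42 ± 0.073, adjusted p = 0.00379). The B cell call was also kept in 12 of 12 alternative settings. Macrophages had 19.6, 20.2 and 17 CPM in KO libraries, against 14, 12.4 and 14 CPM in WT libraries. Although these groups did not overlap, the log2 difference of 0.52 ± 0.12 was not called (adjusted p = 0.108), and it was called without WT replicate 3 (adjusted p = 0.022). In CD4 T cells the levels were 122, 124 and 118 CPM in KO libraries, against 109, 108 and 101 CPM in WT libraries. Again the groups did not overlap, and the log2 difference of 0.19 ± 0.049 had an adjusted p of 0.0557.

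Mcm4, the third gene with a seed match, belongs to the same helicase ring and was called in no cell type. It had 454, 461 and 439 CPM in KO B cells, against 477, 480 and 444 CPM in WT B cells. In CD4 T cells it had 516, 532 and 519 CPM in KO libraries, against 535, 535 and 516 CPM in WT libraries. Both pairs of groups overlapped, and so did the dendritic cells with 53.2, 53 and 47.6 CPM in KO libraries, against 57.1, 48 and 50.8 CPM in WT libraries. In macrophages alone the libraries separated, at 40.6, 41.5 and 37.3 CPM in KO and 31.7, 33.2 and 29.9 CPM in WT. That log2 difference of 0.36 ± 0.097 was not called (adjusted p = 0.136), and it was called without WT replicate 3 (adjusted p = 0.0379).

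**Figure D1:**
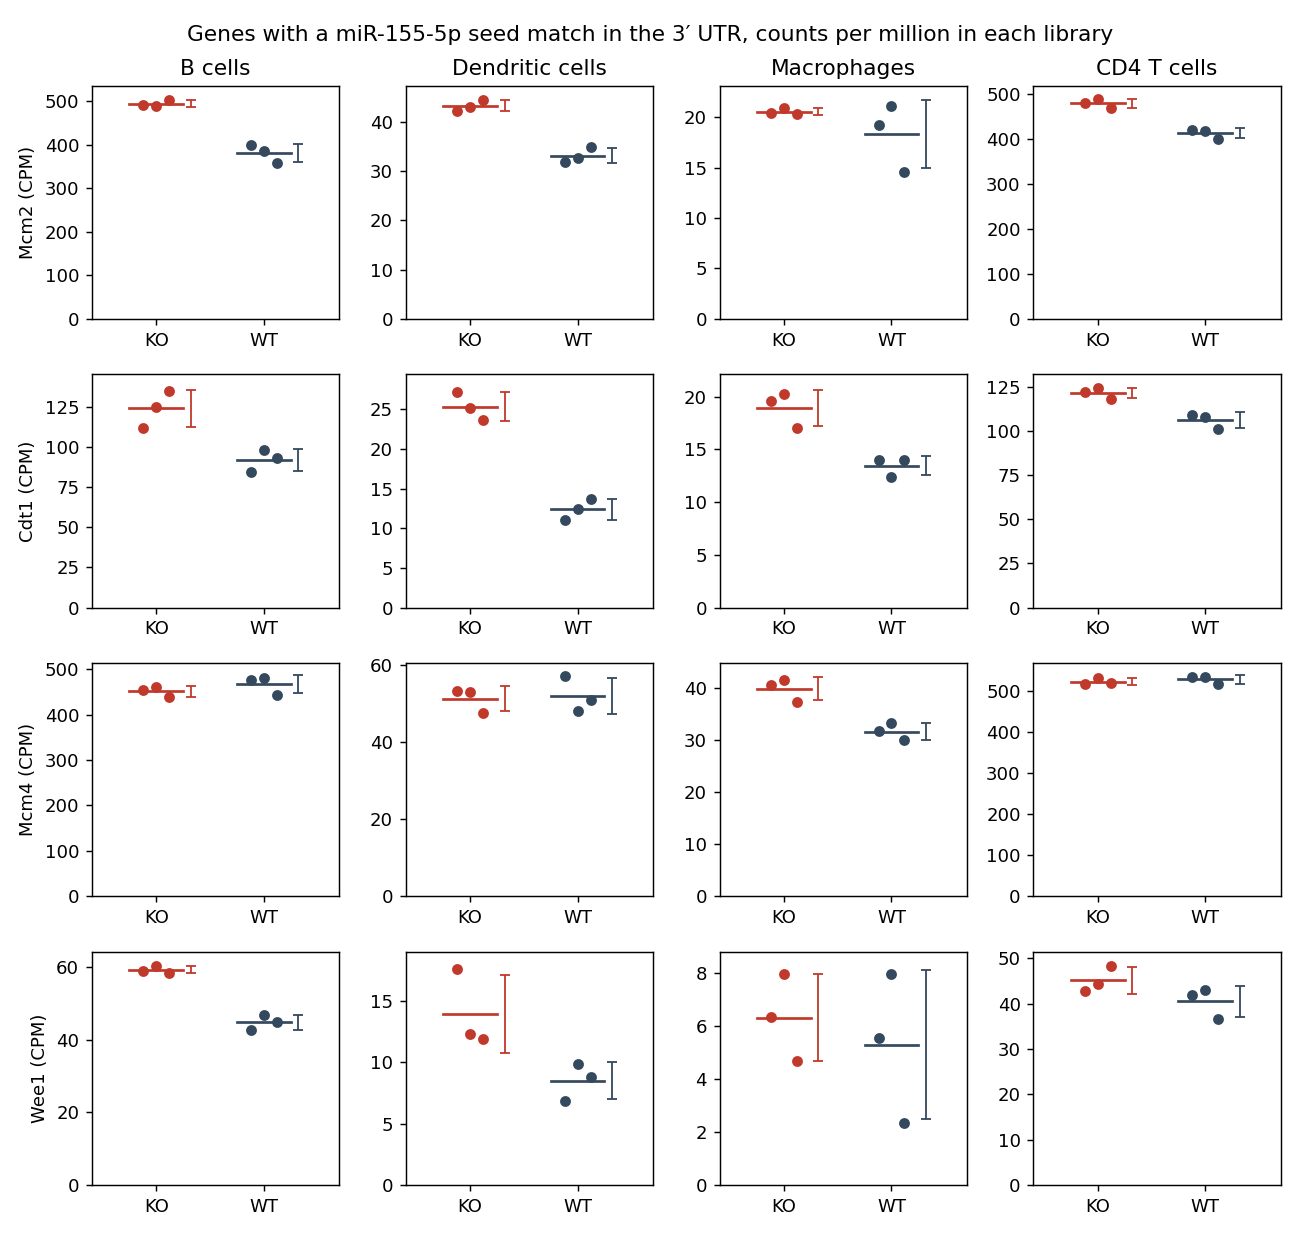
Level in CPM (vertical axes from 0) of Mcm2, Cdt1, Mcm4 and Wee1 in each library of KO (left, red) and WT (right, dark) cells, by cell type; the horizontal line is the mean of 3 libraries and the bar beside it ± 1 SD. Cdt1 in dendritic cells shows the widest gap, with KO libraries at 23.6 to 27.2 CPM and WT libraries at 11.1 to 13.7 CPM, while Mcm4 overlaps in every cell type but macrophages.

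With all libraries of a cell type and genotype alone in the model, no replication gene besides Mcm2 and Cdt1 was called between KO and WT. In KO B cells 2 of 16 were called up and 0 down, and over all genes tested in B cells 2.09% were called up and 1.11% down. At an unadjusted p under 0.05 there were 7 of 16, and 5 of these were uncalled: Mcm3, Mcm5, Rrm2, Ccne1 and E2f1 (log2 differences of -0.13, -0.15, 0.18, 0.17 and 0.18). Over all genes tested in B cells, 1670 of 10151 had an unadjusted p under 0.05. In KO dendritic cells 2 of 16 were called up and 0 down, where 12.2% of all genes were up and 9.42% down. In KO CD4 T cells 1 of 16 was called up and 0 down, where 1.35% of all genes were up and 0.798% down. In KO macrophages 0 of 14 tested were called in either direction, where 0.55% of all genes were up and 0.336% down, and 4 of the 14 had an unadjusted p under 0.05 (Mcm3, Mcm4, Mcm6 and Cdt1). Over all genes tested in macrophages, 1909 of 10730 had an unadjusted p under 0.05. With the replicate number as a block, 265 genes were called in macrophages and still none of the 34 members tested there. In B cells the block also called Rrm2 and Ccne1 up in KO (adjusted p = 0.00036 and 0.0492). It called Mcm3 and Mcm5 down in KO B cells (adjusted p = 0.00856 and 0.00248). The fit of all 24 libraries called 10 members in macrophages, Mcm4, Mcm6, Cdt1 and Bub1b up and Mcm3, Rrm1, Ccnb1, Plk1, Cenpf and Ccnd3 down in KO, and DESeq2 called Ccnd3 down. The median log2 difference of the replication genes was 0.05 in B cells, -0.01 in CD4 T cells, -0.04 in dendritic cells and -0.14 in macrophages, beside -0.00235, -0.00116, -0.0112 and -0.0201 over all genes tested.

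Mcm3, another subunit of the ring, had log2 differences of -0.13, -0.08, -0.18 and -0.30 in B cells, CD4 T cells, dendritic cells and macrophages. With all libraries of a cell type and genotype alone in the model, it was called in none of them (adjusted p = 0.175, 0.263, 0.135 and 0.215). Yet in all 4 cell types every KO library lay below every WT library, and Mcm3 holds no seed match in its 3′ UTR. Mcm3 was called lower in KO B cells with a replicate block (adjusted p = 0.00856). Without WT replicate 3 it was called lower in KO macrophages (log2 fold change -0.34, adjusted p = 0.039). Pcna had 543, 549 and 577 CPM in KO B cells, against 548, 553 and 540 CPM in WT B cells, and 657, 674 and 683 CPM in KO CD4 T cells, against 647, 641 and 663 CPM in WT CD4 T cells. In dendritic cells Pcna had 75.9, 72.2 and 75.7 CPM in KO libraries, against 100, 75.8 and 87.7 CPM in WT libraries, and in macrophages 105, 119 and 103 CPM in KO, against 135, 154 and 94 CPM in WT. The Pcna groups overlapped in all 4 cell types and no difference was called (adjusted p between 0.119 and 0.867). The macrophage difference was called as lower in KO without WT replicate 3 (log2 fold change -0.37, adjusted p = 0.0296). Without WT replicate 2 the dendritic cell difference was called as lower in KO (log2 fold change -0.33, adjusted p = 0.0181).

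As a sum, the 16 replication genes came to 5480 ± 102 CPM in KO B cells and 5430 ± 122 CPM in WT B cells (SD, n = 3 each), and to 5624 ± 77.6 CPM in KO CD4 T cells and 5597 ± 36.1 CPM in WT CD4 T cells. The sum was 634.1 ± 8.32 CPM in KO dendritic cells and 638.8 ± 37 CPM in WT dendritic cells, and 435.4 ± 17.3 CPM in KO macrophages and 465.5 ± 36.2 CPM in WT macrophages. In each cell type the means lay closer together than the larger of the 2 SDs.

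No mitosis gene tested was called by edgeR's quasi-likelihood test within a cell type, in either direction. Over all genes 2.09% were called up and 1.11% down in B cells, 1.35% and 0.798% in CD4 T cells, 12.2% and 9.42% in dendritic cells, and 0.55% and 0.336% in macrophages. Of 20 tested in B cells 1 had an unadjusted p under 0.05, of 19 in dendritic cells 5, of 16 in macrophages 1 and of 20 in CD4 T cells 2. Over all genes tested it was 1670 of 10151 in B cells and 3779 of 10536 in dendritic cells. In macrophages it was 1909 of 10730, and in CD4 T cells 1880 of 10396. DESeq2 also called none of them, while other settings called some. The fit of all 24 libraries called Ccnb2 lower in KO dendritic cells (adjusted p = 0.0402), and in KO macrophages it called Bub1b higher and Ccnb1, Plk1 and Cenpf lower (adjusted p = 0.0416, 0.0429, 0.0158 and 0.026). Bub1 was called higher in KO B cells with a replicate block (adjusted p = 0.00898), and Mki67 lower in KO dendritic cells without WT replicate 1 (adjusted p = 0.0247). Mki67, the proliferation antigen Ki-67 that coats mitotic chromosomes, had 1640, 1480 and 1590 CPM in KO B cells, against 1710, 1620 and 1550 CPM in WT B cells. In CD4 T cells it had 2070, 2150 and 2270 CPM in KO libraries, against 2010, 1980 and 1990 CPM in WT libraries. The B cell groups overlapped, and the T cell groups just separated (log2 fold change 0.12 ± 0.034, adjusted p = 0.0787). In dendritic cells Mki67 stood at 49.6, 59.6 and 55.3 CPM in KO, against 52.4, 62.3 and 78.7 CPM in WT. In macrophages it stood at 515, 476 and 732 CPM in KO, against 358, 296 and 718 CPM in WT. The spread within each macrophage genotype was as wide as the difference (log2 fold change 0.35 ± 0.35, adjusted p = 0.631). Without WT replicate 3 the macrophage log2 fold change was 0.85 (adjusted p = 0.027). That setting parts WT replicate 3 from KO replicate 3, the highest KO library, although same-numbered macrophage libraries deviated together. At each of the 3 replicate numbers the KO library was the higher one. When these numbers entered the model as a block, the log2 fold change was 0.44 (adjusted p = 0.196).

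Top2a, the topoisomerase that untangles sister chromosomes, had 1620, 1550 and 1630 CPM in KO B cells, against 1580, 1630 and 1550 CPM in WT B cells, and 1790, 1850 and 1900 CPM in KO CD4 T cells, against 1730, 1830 and 1840 CPM in WT CD4 T cells. In dendritic cells it had 63.2, 62.8 and 59.4 CPM in KO, against 51.4, 56 and 56.4 CPM in WT, and in macrophages 8.95, 9.98 and 13.5 CPM in KO, against 13.6, 11.6 and 17.4 CPM in WT. Its groups separated in dendritic cells alone, where the log2 difference of 0.18 was not called (adjusted p = 0.12). Ccnb1, the B cyclin that activates Cdk1 at the entry into mitosis, had 135, 131 and 133 CPM in KO B cells, against 135, 148 and 134 CPM in WT B cells, and 104, 105 and 107 CPM in KO CD4 T cells, against 107, 107 and 117 CPM in WT CD4 T cells. In the myeloid cells it was near the limit of these counts, with 1.58, 0.957 and 0.421 CPM in KO and 2.01, 1.56 and 1.74 CPM in WT dendritic cells, and with 0.436, 1.11 and 1.3 CPM in KO and 2.48, 2.34 and 1.02 CPM in WT macrophages. None of these Ccnb1 differences was called (adjusted p between 0.181 and 0.609).

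**Figure D2:**
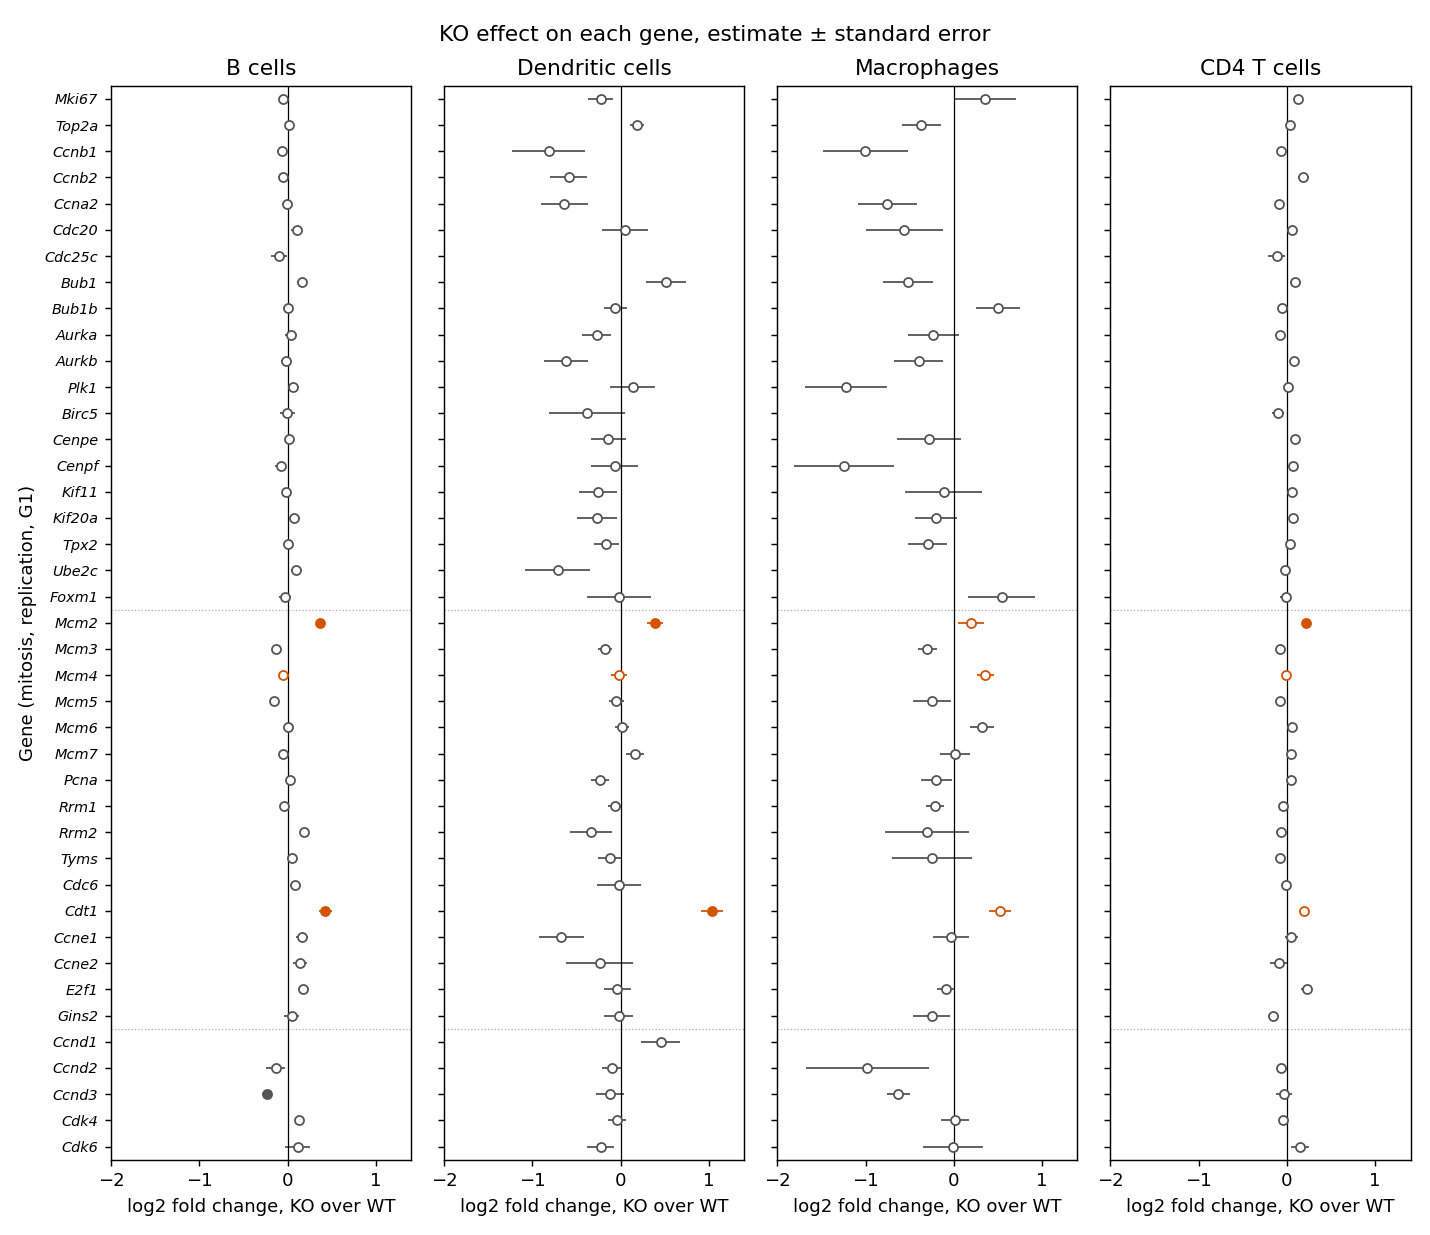
Log2 fold change of KO over WT (horizontal axis) for each gene tested, by cell type, with bars of ± 1 standard error; filled points were called at an adjusted p under 0.05, and orange points mark the 3 genes with a seed match of 7 or 8 bases. The filled orange points are Mcm2 in 3 cell types and Cdt1 in B cells and dendritic cells, and the 1 other filled point is Ccnd3 in B cells; bars are widest in macrophages, with Ccnd2 at 0.692 and Cenpf at 0.569, both genes of low level there.

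The summed mitosis genes had 6344 ± 242 CPM in KO and 6339 ± 71.9 CPM in WT B cells, 187.3 ± 4.92 CPM in KO and 200 ± 18.1 CPM in WT dendritic cells, and 7069 ± 260 CPM in KO and 6798 ± 53 CPM in WT CD4 T cells (SD, n = 3 each). Macrophages had 635.5 ± 146 CPM in KO and 524.1 ± 226 CPM in WT, but Mki67 alone made up 82.5% to 91.8% of that sum. With Mki67 set aside, the other 19 genes summed to 61 ± 8.82 CPM in KO macrophages and 66.9 ± 6.07 CPM in WT macrophages. In the bulk RNA of these samples fewer dividing cells and less of each transcript per cell cannot be told apart.

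A single fit to the 24 libraries tested whether the KO effect itself differed between the 4 cell types, and 7 of the 41 genes were called, where 12.6% of all genes tested were. The 7 were Cdt1 and Mcm4 among the replication genes and Ccnb2, Ccna2, Bub1, Aurkb and Plk1 among the mitosis genes, and none of the 5 G1 genes. The effect on Cdt1 was 0.43 in B cells, 0.20 in CD4 T cells, 1.04 in dendritic cells and 0.50 in macrophages on the log2 scale (adjusted p = 0.00165). Cdt1 and Ccnb2 were called under 27 of 27 alternative settings, Aurkb under 16, Ccna2 under 11, Mcm4 under 9, and Bub1 and Plk1 under 4 each. The KO effect on Mcm2 was not called as different between cell types (adjusted p = 0.469). This fit takes 1 spread per gene for all cell types, although WT macrophage replicates varied more than those of the other groups. Between KO and WT macrophages it called 1755 genes, where the fit of macrophages alone called 59 up and 36 down. Its p-values may thus be too small where macrophages carry the difference, as for Plk1 and Mcm4.

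Ccnb2, the second B cyclin, had 3.43, 2.73 and 2.95 CPM in KO dendritic cells, against 4.49, 4.93 and 4.35 CPM in WT dendritic cells, and 0.655, 0.443 and 0.869 CPM in KO macrophages, against 1.65, 1.31 and 0.817 CPM in WT macrophages. In CD4 T cells it had 96, 103 and 113 CPM in KO, against 97.2, 88.8 and 89.9 CPM in WT, and in B cells 112, 116 and 132 CPM in KO, against 118, 127 and 128 CPM in WT. The log2 KO effects on Ccnb2 were thus -0.59 in dendritic cells and -0.92 in macrophages, against -0.05 in B cells and 0.18 in T cells (adjusted p = 0.0138 for a difference among the 4). Ccna2, cyclin A of S phase and G2, had 1.98, 2.05 and 2.53 CPM in KO dendritic cells, against 4.26, 3.01 and 2.98 CPM in WT dendritic cells, and 0.655, 1.22 and 1.41 CPM in KO macrophages, against 1.65, 1.97 and 2.04 CPM in WT macrophages. Its lymphocyte groups overlapped, at 230 to 239 CPM in KO and 224 to 250 CPM in WT B cells, and at 199 to 217 CPM in KO and 214 to 229 CPM in WT CD4 T cells.

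Aurkb, the Aurora kinase of the chromosomal passenger complex, had 2.11, 2.46 and 2.81 CPM in KO dendritic cells, against 3.67, 3.13 and 4.6 CPM in WT dendritic cells, and 0.982, 1.55 and 1.52 CPM in KO macrophages, against 1.75, 1.97 and 1.74 CPM in WT macrophages. Its groups separated in CD4 T cells the other way (118 to 123 CPM in KO and 112 to 117 CPM in WT) and overlapped in B cells (96 to 110 CPM in KO and 101 to 107 CPM in WT). Bub1, a kinase of the spindle checkpoint, was higher in all 3 KO dendritic cell libraries, with 5.15, 4.38 and 4.07 CPM in KO, against 3.67, 2.53 and 3.36 CPM in WT, while in macrophages it had 2.18, 1.77 and 2.39 CPM in KO, against 4.13, 2.81 and 2.35 CPM in WT. Plk1, the Polo-like kinase of mitotic entry, had 0.218, 0.665 and 0.978 CPM in KO macrophages, against 1.24, 1.5 and 1.74 CPM in WT macrophages. In dendritic cells Plk1 had 3.7, 2.32 and 3.51 CPM in KO, against 2.96, 2.89 and 2.86 CPM in WT. Bub1 separated in B cells, at 197 to 206 CPM in KO and 175 to 184 CPM in WT (log2 difference 0.16, adjusted p = 0.115). It overlapped in CD4 T cells, at 183 to 203 CPM in KO and 182 to 189 CPM in WT. Plk1 overlapped in both, at 188 to 219 CPM in KO and 187 to 208 CPM in WT B cells. In CD4 T cells Plk1 ran from 150 to 161 CPM in KO and from 146 to 157 CPM in WT. Within a cell type, none of the 5 mitosis genes was called between KO and WT where it was tested, and Ccnb2 in macrophages was too low to be tested. These 5 differences rest on levels of at most 5.15 CPM in the myeloid cells, set beside levels of 88.8 to 250 CPM in the lymphocytes. Markers of other cells also stood at other levels in KO than in WT dendritic cell libraries: the 8 B cell markers, all above 0, summed to 14.3 to 25.6 CPM in KO, against 7.33 to 13.2 CPM in WT, and the 10 macrophage markers, all above 0, summed to 74 to 90.7 CPM in KO, against 89.9 to 282 CPM in WT, ranges that just overlapped. The 9 melanoma markers summed to 74 to 77.1 CPM in KO and 160 to 369 CPM in WT dendritic cells, almost all of it Gpnmb, a gene that macrophages express as well, with Mlana, Tyr, Tyrp1, Dct, Sox10 and Slc45a2 at 0. In the macrophage libraries the macrophage markers themselves summed to 22200 to 24400 CPM in KO, against 25700 to 27500 CPM in WT. In the B cell libraries the 8 T cell markers summed to 26.1 to 28.6 CPM in KO, against 34.1 to 34.5 CPM in WT, nearly all of it Lck, with Cd3g at 0. The 10 dendritic cell markers summed to 15500 to 16100 CPM in KO dendritic cells, against 11900 to 12800 CPM in WT dendritic cells, and to 2470 to 2530 CPM in KO macrophages, against 1780 to 2280 CPM in WT macrophages. In neither cell type did those ranges overlap. Fscn1 averaged 8390 CPM in KO and 5300 CPM in WT dendritic cells, and most of the sum in macrophages was Sirpa, which macrophages express as well, with Xcr1 at 0. The part of the makeup of the samples in the values given here was not tested.

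The G1 genes gave 1 call. Ccnd3, the D cyclin of lymphocytes and their precursors, fell in KO B cells to 98.6, 97.7 and 102 CPM, against 123, 112 and 117 CPM in WT B cells (log2 fold change -0.24 ± 0.059, adjusted p = 0.0404). The call was kept in 6 of 12 alternative settings and lost in the fit of all 24 libraries (adjusted p = 0.712) and without any single library other than KO replicate 3. In macrophages Ccnd3 had 49.2, 54.2 and 53.5 CPM in KO, against 86.6, 69.7 and 90.7 CPM in WT. The groups did not overlap, yet the log2 difference of -0.63 ± 0.13 was not called by edgeR's quasi-likelihood test (adjusted p = 0.0783), while DESeq2 gave an adjusted p of 0.00398. Dendritic cells had 47.4, 33.2 and 29.4 CPM in KO, against 37.5, 38.4 and 43.9 CPM in WT, and CD4 T cells 140, 139 and 131 CPM in KO, against 124, 135 and 161 CPM in WT. Both of those overlapped. Ccnd3 holds no seed match in its 3′ UTR.

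Ccnd2, the D cyclin induced by mitogens in B cells, had 317, 321 and 284 CPM in KO B cells, against 365, 370 and 278 CPM in WT B cells, and 286, 302 and 276 CPM in KO CD4 T cells, against 288, 323 and 294 CPM in WT CD4 T cells. Dendritic cells had 189, 225 and 197 CPM of it in KO, against 180, 228 and 246 CPM in WT, and macrophages 1.2, 0.998 and 2.39 CPM in KO, against 1.75, 1.22 and 6.33 CPM in WT. The groups overlapped throughout and none was called with all libraries and genotype alone in the model. Ccnd2 was called lower in KO B cells with a replicate block or without WT replicate 3 (adjusted p = 0.023 and 0.0462). Without WT replicate 1 it was called lower in KO dendritic cells (adjusted p = 0.0291). Ccnd1 was detected mainly in dendritic cells, with 8.18, 5.33 and 5.76 CPM in KO, against 5.2, 4.93 and 3.98 CPM in WT, a difference that was not called (adjusted p = 0.164). In macrophages it had 0.327, 0.665 and 0.543 CPM in KO, against 0.31, 0.468 and 0.613 CPM in WT. Ccnd1 was at 0 in all WT B cell, KO T cell and WT T cell libraries, and 1 read was counted in 1 of the 3 KO B cell libraries.

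Cdk4 had 380, 385 and 396 CPM in KO B cells, against 350, 361 and 351 CPM in WT B cells, groups that separated with a log2 difference of 0.13 that was not called (adjusted p = 0.165). In CD4 T cells it had 323, 335 and 335 CPM in KO, against 337, 353 and 335 CPM in WT, in dendritic cells 54.6, 53.9 and 54.5 CPM in KO, against 60.1, 47.4 and 60.8 CPM in WT, and in macrophages 123, 135 and 125 CPM in KO, against 129, 157 and 101 CPM in WT. Cdk6, its close relative, had 6.99, 7.89 and 6.85 CPM in KO B cells, against 7.5, 6.01 and 6.69 CPM in WT B cells, and 21.3, 17.8 and 21.7 CPM in KO CD4 T cells, against 19.1, 18.5 and 17.3 CPM in WT CD4 T cells. In dendritic cells it had 19.1, 23.8 and 23.3 CPM in KO, against 23.4, 22.6 and 31.7 CPM in WT, and in macrophages 7.09, 7.65 and 7.61 CPM in KO, against 5.47, 5.24 and 12.2 CPM in WT. No Cdk4 or Cdk6 difference between genotypes was called, except that of Cdk4 in B cells with a replicate block (adjusted p = 0.0219).

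Other genes of the cell cycle were read from 5 further lists. Of 40 other replication genes 1 rose in KO B cells, Gins1, a subunit of the GINS complex that activates the helicase, with 27.3, 33.3 and 32.6 CPM in KO, against 19.9, 21.7 and 21.8 CPM in WT (log2 fold change 0.55 ± 0.095, adjusted p = 0.00372). None of the 40 was called in dendritic cells or CD4 T cells, and none of 38 tested in macrophages, with 10, 9 and 4 at an unadjusted p under 0.05. Over all genes tested it was 3779 of 10536, 1880 of 10396 and 1909 of 10730 in the same order. Of 44 other mitosis genes Pbk rose in KO B cells and Cdca3 fell in KO dendritic cells (log2 fold changes of 0.32 and -0.90). The same list gave 0 calls in macrophages (32 tested, 4 at an unadjusted p under 0.05) and 0 in CD4 T cells (44 tested, 6 at an unadjusted p under 0.05). Its mitotic kinase Cdk1 was not called in any cell type. It had 164, 165 and 185 CPM in KO B cells, against 156, 170 and 163 CPM in WT B cells, and 164, 175 and 174 CPM in KO T cells, against 175, 169 and 190 CPM in WT T cells. In dendritic cells Cdk1 had 9.11, 8.89 and 8.99 CPM in KO, against 13.6, 11.2 and 8.7 CPM in WT, and in macrophages 3.38, 3.33 and 4.35 CPM in KO, against 2.48, 3.46 and 2.25 CPM in WT.

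Wee1, the kinase that holds Cdk1 inactive until mitosis, also holds an 8mer in its 3′ UTR, and so does E2f2, an E2F of the activator class. They are shown as the 2 genes of these lists with an 8mer that were called in a KO comparison.
Wee1 8mer, chr7:110142691-110142720, plus strand: gctgtaaaactAGCATTAAacaatcattgt
E2f2 8mer, chr4:136194400-136194429, plus strand: tttaagtttgtAGCATTAAattgatttaaa
Wee1 rose in KO B cells, at 59.1, 60.4 and 58.6 CPM, against 42.8, 46.8 and 45 CPM in WT B cells (log2 fold change 0.40 ± 0.067, adjusted p = 0.0027). It rose in KO dendritic cells too, at 17.6, 12.3 and 11.9 CPM, against 6.86, 9.86 and 8.82 CPM in WT dendritic cells (0.71 ± 0.19, adjusted p = 0.0237). In CD4 T cells it had 42.7, 44.3 and 48.4 CPM in KO, against 41.8, 43 and 36.6 CPM in WT, and in macrophages 6.33, 7.98 and 4.67 CPM in KO, against 5.57, 7.96 and 2.35 CPM in WT. Those groups overlapped and were not called (adjusted p = 0.286 and 0.759). E2f2 rose in both kinds of lymphocyte, with 48.5, 48.6 and 51.1 CPM in KO B cells, against 36.7, 39.5 and 37.8 CPM in WT B cells (0.38 ± 0.070, adjusted p = 0.00618), and with 58, 56.4 and 63.5 CPM in KO T cells, against 48.6, 48.9 and 46.7 CPM in WT T cells (0.31 ± 0.063, adjusted p = 0.0312). In KO B cells Wee1 was the 1 of 15 checkpoint genes called, and E2f2 and Myc (0.24) were the 2 of 17 other G1/S regulators called, where 2.09% of all genes were up and 1.11% down.

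Inhibitors and checkpoint genes were called most often in dendritic cells, the cell type with the most calls over all genes. Of 15 checkpoint genes 6 rose and 2 fell in KO dendritic cells, where 12.2% of all genes were up and 9.42% down. The 4 that rose with the smallest p were Ccng2, an atypical cyclin of resting cells (log2 fold change 0.74 ± 0.087), Gadd45b and Gadd45a, stress-induced genes of growth arrest (0.60 ± 0.074 and 1.19 ± 0.18), and the replication stress kinase Atr (0.61 ± 0.084). Atr had 138, 124 and 112 CPM in KO dendritic cells, against 81.4, 83.2 and 81.3 CPM in WT dendritic cells. Atm, the kinase of the response to DNA breaks, fell there, at 23.9, 22.7 and 20.1 CPM in KO, against 28.3, 41.5 and 38 CPM in WT (-0.69 ± 0.145), and so did Trp53, which encodes p53 (-0.32 ± 0.077). Cdk2 and Tfdp1, the partner of the E2Fs, fell as well among 15 other G1/S regulators (-0.36 ± 0.098 and -0.42 ± 0.11).

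Of 9 inhibitors and pocket proteins tested in dendritic cells, 3 rose in KO cells and 0 fell, beside the same 12.2% up and 9.42% down of all genes. They were the inhibitor Cdkn1a (p21) and the retinoblastoma family genes Rb1 and Rbl1, the last pair named after their values were seen. Cdkn1a had 128, 135 and 138 CPM in KO dendritic cells, against 117, 115 and 101 CPM in WT dendritic cells (0.27 ± 0.081, adjusted p = 0.0353). Its level was 1.35, 2.55 and 2.34 CPM in KO B cells, against 1.97, 1.44 and 1.57 CPM in WT B cells, and 29.1, 31.7 and 22.8 CPM in KO T cells, against 24.5, 28.2 and 39.3 CPM in WT T cells. Macrophages had 26.7, 25.9 and 33.4 CPM of Cdkn1a in KO, against 31.1, 44.3 and 31.7 CPM in WT. Rb1 rose by 0.61 ± 0.097 and Rbl1 by 0.49 ± 0.090 in KO dendritic cells (adjusted p = 0.00148 and 0.00365). Cdkn1b (p27) was not called in any cell type, with 91.3, 71.9 and 74.4 CPM in KO dendritic cells, against 66.3, 59.7 and 67.6 CPM in WT dendritic cells (adjusted p = 0.0577), and with 30.2, 24 and 33.1 CPM in KO T cells, against 26.1, 19.8 and 23.3 CPM in WT T cells. In B cells it had 26.4, 29.5 and 24.5 CPM in KO, against 26.2, 23.6 and 29.3 CPM in WT, and in macrophages 21.9, 19.6 and 22.6 CPM in KO, against 26.8, 20.7 and 25.2 CPM in WT. In KO B cells Cdkn2a, which encodes p16 and p19Arf, rose at a low level, to 2.54, 3.82 and 4.78 CPM, against 0.889, 0.847 and 2.16 CPM in WT B cells (1.51 ± 0.34, adjusted p = 0.0302). In KO T cells Pkmyt1, a kinase related to Wee1, fell to 62.5, 69.7 and 63.2 CPM, against 79.1, 74.8 and 77.8 CPM in WT T cells (-0.24 ± 0.058, adjusted p = 0.0479). In macrophages edgeR's quasi-likelihood test called 0 of 8 inhibitors, 0 of 15 other G1/S regulators and 0 of 14 checkpoint genes, with 0, 1 and 1 of them at an unadjusted p under 0.05. Over all genes tested there it was 1909 of 10730.

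Between cell types the differences were of another order. In WT cells all 20 mitosis genes stood higher in B cells than in dendritic cells, and higher in B cells than in macrophages, and the same held for CD4 T cells against either (called in the fit of all 24 libraries). Of 41 genes 39 were called up and 2 down in B cells against dendritic cells, where 38% of all genes were up and 42.2% down. In B cells against macrophages 38 were up and 2 down, where 39.6% of all genes were up and 42.8% down. CD4 T cells had 39 up and 2 down against dendritic cells (39.8% and 41.8% of all genes) and 39 up and 2 down against macrophages (40.9% and 42.8% of all genes). The median log2 difference of the mitosis genes was 5.46 for B cells minus dendritic cells, 6.37 for B cells minus macrophages, 5.31 for CD4 T cells minus dendritic cells and 6.18 for CD4 T cells minus macrophages. For the replication genes it was 3.23, 4.01, 3.26 and 4.21 in the same order, and over all genes it lay between -0.10 and -0.03.

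Kif11, the motor that pushes spindle poles apart, had the widest gap of the 20 mitosis genes in 3 of these 4 comparisons, and Ccnb1 in B cells against dendritic cells (6.27 ± 0.18 on the log2 scale). It had 371, 365 and 371 CPM in WT B cells and 431, 418 and 420 CPM in WT CD4 T cells, against 6.15, 4.69 and 5.34 CPM in WT dendritic cells and 2.06, 1.78 and 2.45 CPM in WT macrophages. CD4 T cells exceeded macrophages by 7.65 ± 0.17 on the log2 scale (SE). Cdc20, an activator of the anaphase-promoting complex, had 210, 217 and 236 CPM in WT B cells, against 0.826, 1.59 and 1.53 CPM in WT macrophages, and Ccna2 had 230, 250 and 224 CPM in WT B cells, against 4.26, 3.01 and 2.98 CPM in WT dendritic cells. Among replication genes the widest gap from macrophages was that of Rrm2 and Cdc6. Rrm2, the regulated subunit of ribonucleotide reductase, had 306, 307 and 336 CPM in WT CD4 T cells, against 4.02, 1.59 and 1.74 CPM in WT macrophages, and the loading factor Cdc6 had 112, 121 and 122 CPM in WT CD4 T cells, against 0.826, 0.655 and 1.23 CPM in WT macrophages. The helicase gene Mcm6 had 154, 144 and 136 CPM in WT dendritic cells, against 32.8, 31.8 and 23.9 CPM in WT macrophages.

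**Figure D3:**
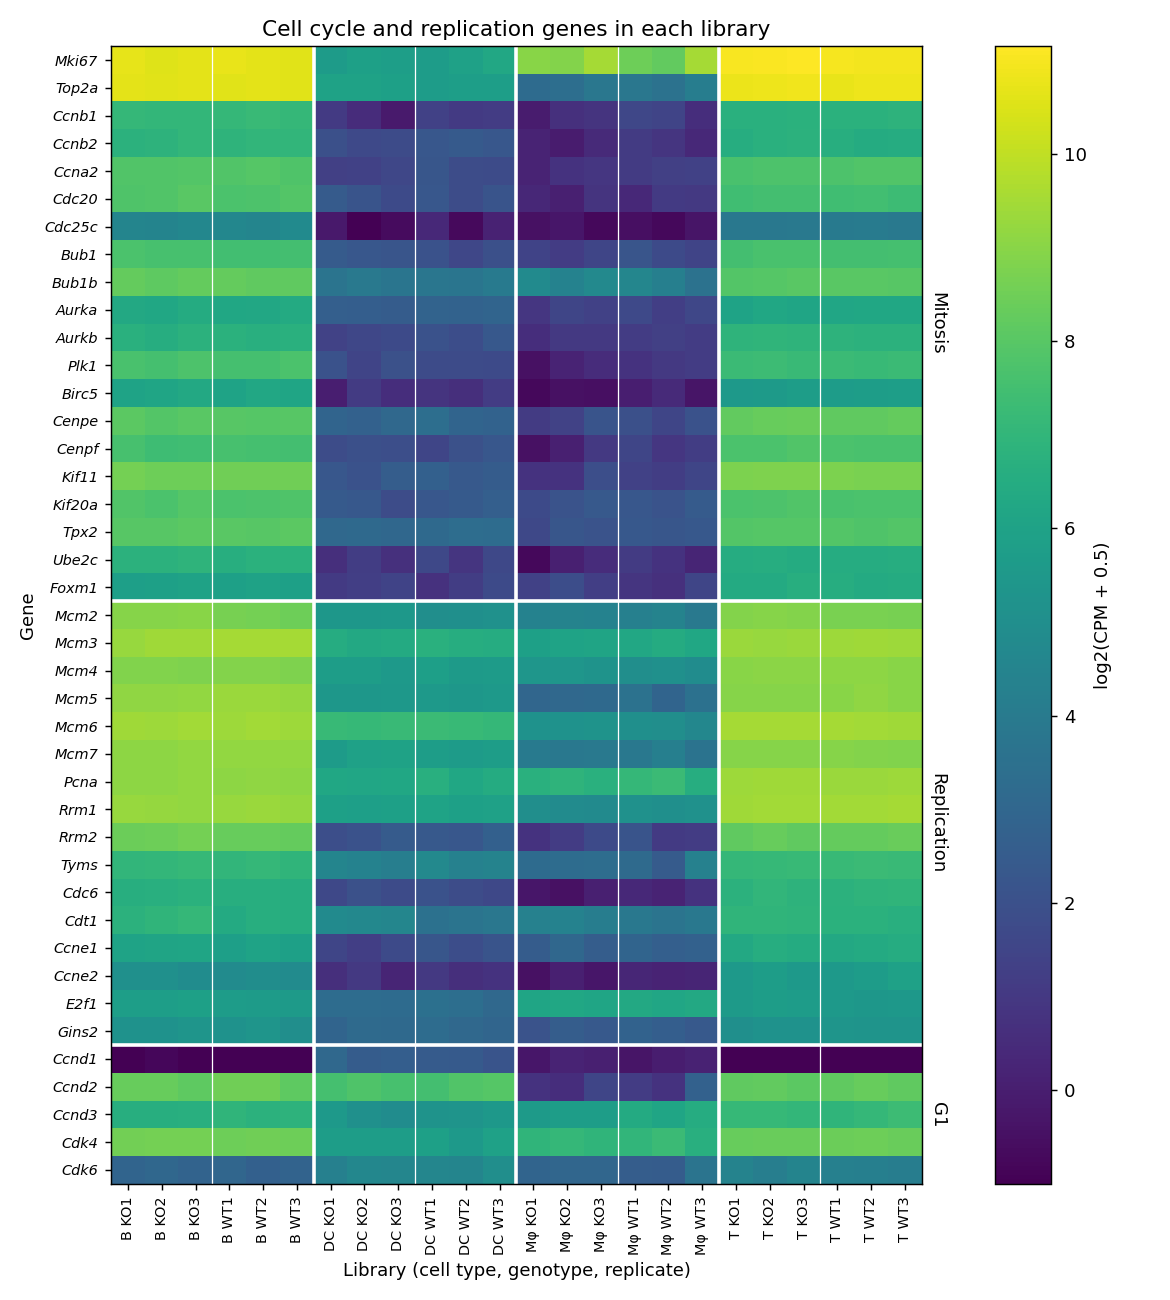
Level of each of the 41 genes (rows) in each of the 24 libraries (columns, KO left of WT within each cell type), as log2(CPM + 0.5) by colour. B and T cell libraries are bright over nearly all rows. Mki67 and E2f1 in macrophages, and Ccnd2 and the helicase genes in dendritic cells, stand out against lower rows around them. Ccnd1 is brighter in dendritic cells than in the other cell types.

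Set per kilobase of coding sequence, so that genes can be compared with each other, Pcna was the most abundant of the 16 replication genes in all 8 groups, at 857 CPM per kilobase in KO and 830 in WT CD4 T cells, 710 in KO and 699 in WT B cells, 95.3 in KO and 112 in WT dendritic cells, and 139 in KO and 163 in WT macrophages. Top2a was the most abundant mitosis gene per kilobase in B cells, T cells and dendritic cells, and Mki67 in macrophages. The median over the replication genes was 176 CPM per kilobase in KO and 159 in WT B cells, and 17.4 in both KO and WT dendritic cells. The median over the mitosis genes was 102 CPM per kilobase in KO and 106 in WT B cells, but 2.04 in KO and 2.58 in WT dendritic cells. The median of the replication genes was thus several times that of the mitosis genes in dendritic cells, and less than 2 times that of the mitosis genes in B cells.

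A few genes broke the order. E2f1, an activator E2F, was highest in macrophages, with 69.1, 75.3 and 71.1 CPM in KO and 81.1, 73 and 79.6 CPM in WT. WT B cells had 51.6, 50.1 and 48.8 CPM, WT CD4 T cells 46.1, 43 and 44 CPM and WT dendritic cells 10.8, 9.86 and 8.08 CPM. Each of these differences from macrophages was called (log2 differences of -0.65, -0.82 and -3.02 for B cells, T cells and dendritic cells minus macrophages). Mki67 stood 2.82 ± 0.24 lower on the log2 scale in WT dendritic cells than in WT macrophages, while Top2a stood 1.95 ± 0.125 higher there. In WT macrophages Mki67 thus reached 47.9 CPM per kilobase, where the other mitosis genes stayed at or below 5.67 CPM per kilobase.

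The D cyclins divided the cell types. Ccnd1 averaged 4.7 ± 0.644 CPM in WT dendritic cells (SD, n = 3), at least 50.3-fold higher than in WT B cells and at least 53.2-fold higher than in WT CD4 T cells, both at 0 (lower bounds against 3 counts summed over the 3 libraries, which cover counting error only). It also exceeded the WT macrophage mean of 0.463 CPM (log2 difference 3.31 ± 0.35 for dendritic cells minus macrophages). Ccnd2 was within 2-fold across WT B cells, CD4 T cells and dendritic cells (338 ± 51.9, 302 ± 19 and 218 ± 34.5 CPM) but 6.15 ± 0.30 higher on the log2 scale in WT dendritic cells than in WT macrophages. Ccnd3 was higher in macrophages, at 82.3 ± 11.1 CPM in WT, than in dendritic cells, at 39.9 ± 3.46 CPM in WT. Cdk6 was highest in dendritic cells, at 25.9 ± 5.03 CPM in WT, followed by CD4 T cells at 18.3 ± 0.904 CPM. Macrophages had 7.62 ± 3.92 CPM and B cells 6.73 ± 0.748 CPM. The WT macrophage libraries held 5.47, 5.24 and 12.2 CPM, so the order of those last cell types rests on replicate 3. The difference between CD4 T cells and dendritic cells (-0.51 ± 0.19, adjusted p = 0.0176) was lost when the 12 WT libraries were fitted alone (adjusted p = 0.0705), without T cell WT replicate 3 or without dendritic cell WT replicate 3 (adjusted p = 0.0534 and 0.133), and B cells and macrophages had no called difference (adjusted p = 0.443).

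**Figure D4:**
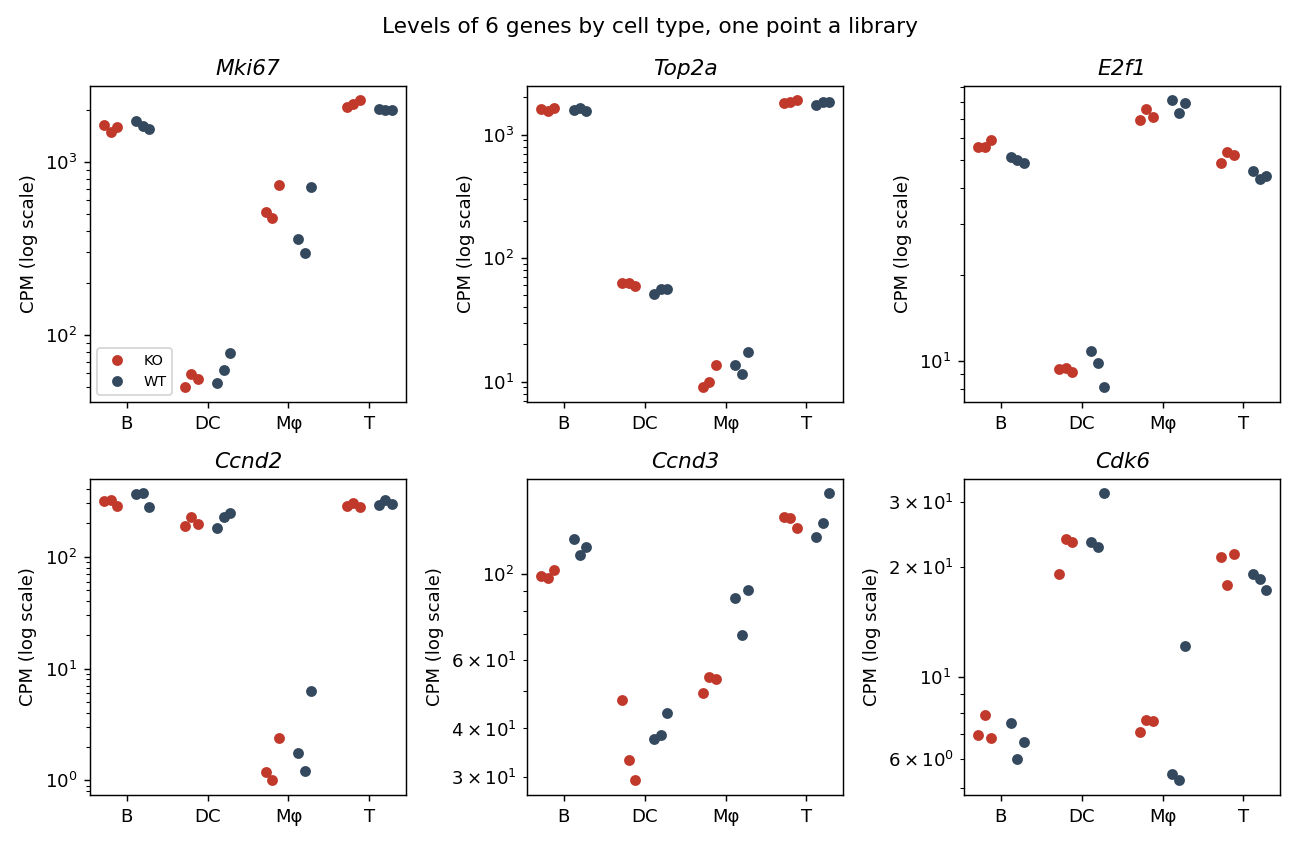
CPM on a log axis of Mki67, Top2a, E2f1, Ccnd2, Ccnd3 and Cdk6 in each library, by cell type, with KO libraries (red) left of WT libraries (dark). Macrophages lie high for Mki67 and E2f1 and low for Top2a and Ccnd2, where their libraries reach at most 6.33 CPM.

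The 2 kinds of lymphocyte were close. Of 41 genes 8 were called higher and 8 lower in WT B cells than in WT CD4 T cells, where 29% of all genes were higher and 27.2% lower. The 6 mitosis genes called higher in B cells were Cdc25c, Ccnb2, Birc5, Cdc20, Plk1 and Ccnb1, all of G2 and mitosis. Cdc25c, the phosphatase that activates Cdk1, had 24, 22.3 and 27.5 CPM in WT B cells, against 15.8, 16 and 14.6 CPM in WT T cells (log2 difference 0.66 ± 0.16, adjusted p = 0.00101). Ccnb2 had 118, 127 and 128 CPM in WT B cells, against 97.2, 88.8 and 89.9 CPM in WT T cells, and Birc5 (survivin) 64.6, 78.5 and 70.7 CPM, against 51.4, 53.5 and 55.1 CPM. The other 2 higher were Mcm5 and Mcm7. Lower in B cells were the E cyclins, Cdc6, Cdt1, Mcm4, Rrm1, the transcription factor Foxm1 and Cdk6. Ccne2 had 28.7, 30.4 and 28.9 CPM in WT B cells, against 45.5, 51.8 and 61.1 CPM in WT T cells (-0.86 ± 0.11), Foxm1 59.1, 64.1 and 59.6 CPM, against 94.1, 86.4 and 89.3 CPM (-0.57 ± 0.12), and Cdk6 7.5, 6.01 and 6.69 CPM, against 19.1, 18.5 and 17.3 CPM (-1.45 ± 0.21). The Cdt1 difference was -0.21 between WT B cells and WT T cells (adjusted p = 0.0314) and 0.02 between the KO libraries of the same cell types (adjusted p = 0.876).

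The 2 myeloid cell types differed in more genes. WT dendritic cells had 28 of the 41 called higher than WT macrophages and 7 lower, where 39.4% of all genes were higher and 41% lower. Of the 16 replication genes 12 were higher, led by Mcm6 (2.29 ± 0.092), Mcm5 (2.20 ± 0.11) and Mcm7 (1.82 ± 0.11), and of the 20 mitosis genes 13. The 7 lower were E2f1, Mki67, Cdk4, Ccnd3, Ccne1, Pcna and Bub1b. Cdk4 had 60.1, 47.4 and 60.8 CPM in WT dendritic cells, against 129, 157 and 101 CPM in WT macrophages (-1.20 ± 0.11). Cdt1 was not called between the WT libraries of these cell types (-0.12, adjusted p = 0.321), and in the KO libraries it was higher in dendritic cells than in macrophages (0.42, adjusted p = 0.000546).

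Promoter sequence, which played no part in choosing the genes, also divided mitosis from replication. Windows from 250 bases before to 50 bases after the gene start (RefSeq, GRCm38.p6) were at hand for 14 mitosis, 13 replication and 3 G1 genes and for 15656 genes in all. They were searched on both strands for CCAAT, the box of NF-Y, for the CHR letters TTTGAA or TTCGAA, and for the E2F letters TTTGGCGC and its variants TTTCCCGC, then TTTCGCGC, then TTTGCCGC, and 2 such matches can overlap. CCAAT occurred in 13 of 14 mitosis promoters and 8 of 13 replication promoters, and in 42.4% of all promoters. CHR letters occurred in 11 of 14 mitosis promoters and 2 of 13 replication promoters, against 19.3% of all promoters, and the same 11 and 2 promoters held both CCAAT and CHR, against 7.95% of all. E2F letters occurred in 0 of 14 mitosis promoters and in 6 of 13 replication promoters (Mcm3, Mcm5, Mcm6, Mcm7, Cdc6 and Cdt1), against 3.33% of all promoters. A letter match is not a binding site, and no match says only that these letters are not in this window.

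The promoters of Ccnb2 and Plk1 are printed as mitosis genes whose KO effect differed between cell types, and those of Mcm5 and Cdt1 as replication genes with E2F letters. Capitals mark the matches, on either strand.
Ccnb2, chr9:70421505-70421804, minus strand: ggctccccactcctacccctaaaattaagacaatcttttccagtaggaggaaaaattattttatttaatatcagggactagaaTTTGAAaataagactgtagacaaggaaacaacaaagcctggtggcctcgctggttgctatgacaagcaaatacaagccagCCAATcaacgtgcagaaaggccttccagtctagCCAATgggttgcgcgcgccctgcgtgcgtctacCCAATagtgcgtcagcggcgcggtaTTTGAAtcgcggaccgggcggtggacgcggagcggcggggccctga
Plk1, chr7:122159185-122159484, plus strand: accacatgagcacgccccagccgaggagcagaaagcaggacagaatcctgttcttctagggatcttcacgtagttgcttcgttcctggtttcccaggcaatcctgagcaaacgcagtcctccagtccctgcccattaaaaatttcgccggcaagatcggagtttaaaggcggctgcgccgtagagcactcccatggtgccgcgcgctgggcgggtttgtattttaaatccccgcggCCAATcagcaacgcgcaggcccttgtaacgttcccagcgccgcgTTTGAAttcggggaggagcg
Mcm5, chr8:75109259-75109558, plus strand: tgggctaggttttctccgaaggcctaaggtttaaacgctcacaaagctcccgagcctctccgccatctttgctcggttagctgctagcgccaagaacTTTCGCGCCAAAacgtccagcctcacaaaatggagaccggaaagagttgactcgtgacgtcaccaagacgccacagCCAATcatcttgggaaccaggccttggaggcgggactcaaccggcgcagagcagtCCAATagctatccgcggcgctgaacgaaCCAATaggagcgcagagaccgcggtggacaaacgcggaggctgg
Cdt1, chr8:122567765-122568064, plus strand: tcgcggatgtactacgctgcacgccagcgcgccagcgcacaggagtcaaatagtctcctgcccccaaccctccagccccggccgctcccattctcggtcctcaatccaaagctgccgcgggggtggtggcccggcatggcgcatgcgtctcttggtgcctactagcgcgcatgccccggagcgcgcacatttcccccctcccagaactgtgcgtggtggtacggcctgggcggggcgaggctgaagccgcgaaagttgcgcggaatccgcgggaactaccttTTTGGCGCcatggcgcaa
Ccnb2 holds CCAAT at positions -87, -54 and -21 from the start and CHR letters at -167 and 4, while Plk1 holds 1 of each, at -14 and 30. Mcm5 holds overlapping E2F letters at -153 and -149 and CCAAT at -77, -22 and 6. Cdt1 holds E2F letters at 32 and no CCAAT. Mcm2, the other gene that rose in KO cells, holds CCAAT at -175 and CHR letters at -70 but none of the E2F letters.

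**Figure D5:**
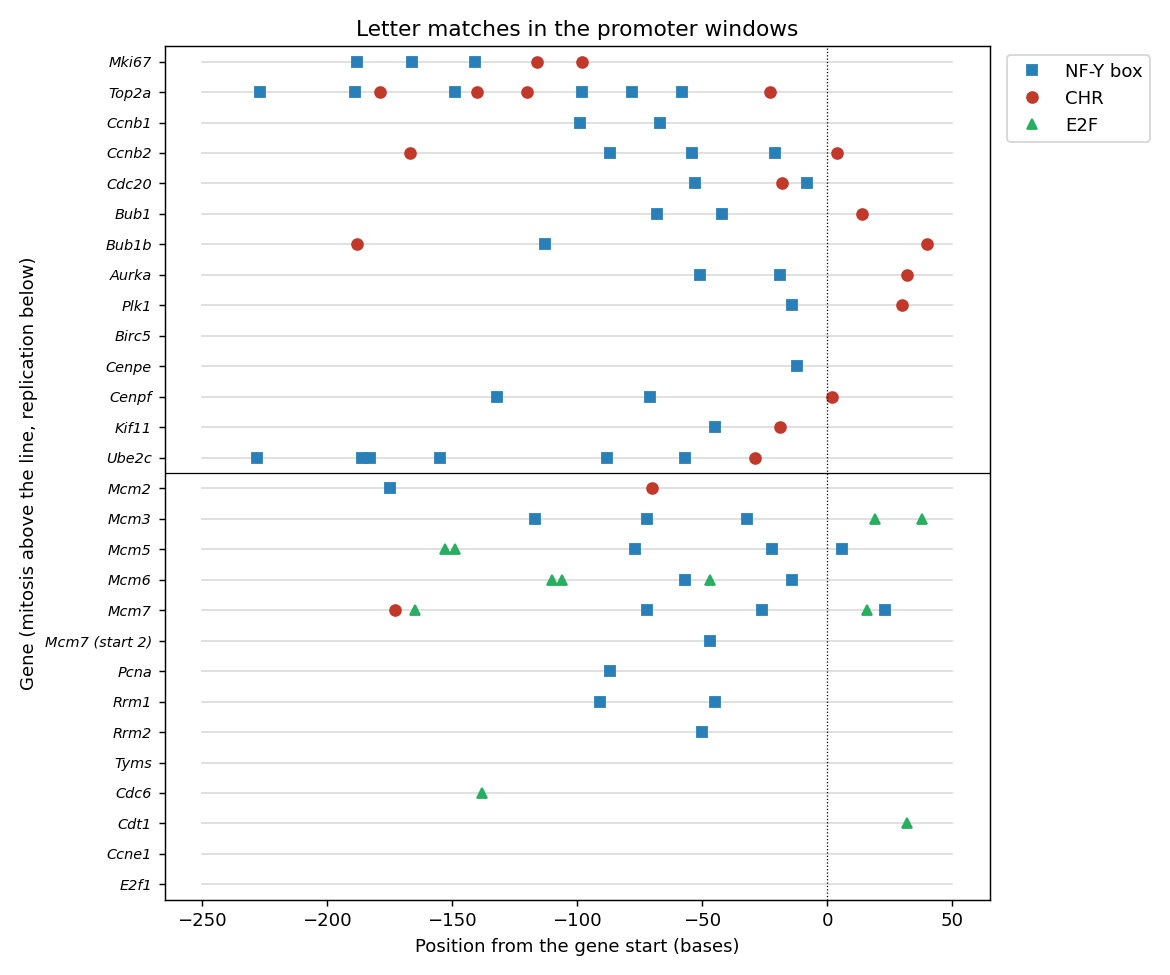
Position from the gene start, in bases (horizontal axis), of matches to CCAAT (blue squares, labelled NF-Y box after its binding factor), CHR (red circles) and E2F letters (green triangles) in the promoter windows of 14 mitosis genes (above the line) and 13 replication genes (below). Red circles lie in 11 of the 14 mitosis genes and green triangles only in 6 of the replication genes.

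Some of these genes share sequence with copies elsewhere, and how the deposited counts treated reads that fit several places is not given in the sources used here. Processed pseudogenes cover nearly the whole coding sequence of Ccnb1, Pcna, Mcm7 and Ccnd3 at 96.2% to 99.2% identity, and 86.5% of that of Cdc6, so the counts of these genes, including the call of Ccnd3 in B cells, are uncertain to that extent. Mcm2 and Cdt1 had no such copy. Kif20a shares 8 coding bases with the coding sequence of Cdc23 on the other strand, and 314 of its coding bases (11.8%) match a Cdc23 transcript at 100% identity. For Ccne2, 137 coding bases (11.3%) match a transcript of Ints8 at 100% identity.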

How the data were processed

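Each deposited file lists the raw read count of every gene symbol in 1 of 24 libraries, not normalized by the authors. Per the submitters' processing notes, cutadapt, STAR and the mm9 build were used, without versions; the counter and its strand setting are not stated there. The 5 lines of each file that name no gene were left out, and reads in no feature made up 51.4% to 61.1% of a library.

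Groups followed the sample titles. Counts were tested with edgeR 4.0.16 in R 4.3.3 (TMM scaling, filterByExpr, robust glmQLFit and glmQLFTest, two-sided) over all genes, 3 KO against 3 WT libraries per cell type, and 1 fit of 24 libraries with 8 group means served the 6 WT pairs of cell types and the test that the KO effect differs between cell types. Calls were made under an adjusted p of 0.05 (Benjamini-Hochberg). CPM uses TMM factors over the 24 libraries, the SE is the absolute log2 fold change over the square root of F, and values per kilobase use the union of coding bases in GENCODE M21. The KO against WT tests and the test that the KO effect differs between cell types were tried on simulated counts with known changes. Those counts had the same spread in every cell type, and the other steps were not simulated. Every pair of replicates differed by more than counting noise. The number of libraries and their depth limit the precision at low levels, and bounds against 0 cover counting error only.

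The members and lists were chosen with earlier results of these data known. Per-library values are given for called members, for Mki67, Top2a, Ccnb1, Pcna, Mcm2, the D cyclins, Cdk4 and Cdk6, and for the 3 called members with the largest difference in each direction in a WT pair; from the other lists, for up to 4 called genes in each direction and for Cdkn1a, Cdkn1b, Wee1 and Cdk1. Same-numbered KO and WT libraries deviated together in macrophages, with correlations of 0.121, 0.227 and 0.313. These were taken to pair them from the data and not from a stated design. In B cells the same-numbered correlations were weaker, at 0.093, 0.035 and 0.148, against -0.125 to 0.049 between different numbers. In dendritic cells and CD4 T cells the numbers did not go together. Alternatives were DESeq2 1.42.0, other scaling and filters, other sets of libraries, a replicate block and leaving out each library. Sequences come from RefSeq (GRCm38.p6) and from GENCODE M21 (GRCm38), not from the mm9 build of the files.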

Additional observations from a re-analysis of the deposited data

Results flagged for a closer look

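The KO effect was called as different between the 4 cell types for 7 of the 41 genes, by a test of the difference itself in edgeR's fit of all 24 libraries. That fit takes 1 spread per gene for all cell types, so its p-values may be too small where macrophages carry the difference. On the log2 scale, KO minus WT, Cdt1 had 0.43 in B cells, 0.20 in CD4 T cells, 1.04 in dendritic cells and 0.50 in macrophages (adjusted p = 0.00165). Mcm4 had -0.05, -0.01, -0.02 and 0.34 in the same order (adjusted p = 0.0398), and Ccnb2 had -0.05, 0.18, -0.59 and -0.92 (adjusted p = 0.0138). Ccna2 had -0.01, -0.09, -0.64 and -0.77 (adjusted p = 0.0414), and Aurkb had -0.02, 0.08, -0.62 and -0.42 (adjusted p = 0.0374). Bub1 had 0.16, 0.09, 0.51 and -0.53 (adjusted p = 0.046), and Plk1 had 0.07, 0.02, 0.14 and -1.24 (adjusted p = 0.0498). Over the alternatives the adjusted p ran from 0.000681 to 0.00848 for Cdt1, from 0.00271 to 0.0386 for Ccnb2, from 0.0178 to 0.107 for Aurkb, from 0.0244 to 0.0859 for Ccna2, from 0.0287 to 0.113 for Mcm4, from 0.00982 to 0.164 for Bub1 and from 0.0224 to 0.293 for Plk1.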

How the results depend on the processing

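Counts below are of members called. In the fit of all 24 libraries, 0 fell in KO B cells, 2 fell in KO dendritic cells, 4 rose and 6 fell in KO macrophages, and 0 rose in KO CD4 T cells. With DESeq2, 1 fell in KO macrophages and 13 were lower in WT B cells than in WT CD4 T cells. Without an expression filter, 2 rose in KO CD4 T cells and 2 had an effect that differed between cell types. With a replicate block, 6 rose and 4 fell in KO B cells, and 3 had an effect that differed between cell types. Same-numbered B cell libraries correlated at 0.093, 0.035 and 0.148, and those of dendritic cells and CD4 T cells at -0.185 to 0.082. No stated design pairs them. The block changed no other count by more than 1.5 times. The B cell block rests on the numbers in the sample titles, as the deposited files number the WT B cell libraries differently. The fit of the 12 WT libraries called 1 gene lower in T cells than in dendritic cells and 5 higher in B cells than in T cells. Between KO libraries, 1 was lower in T cells than in dendritic cells and 13 were lower in B cells than in T cells, and Cdt1 turned round, to 0.019 for B cells minus T cells and to 0.417 for dendritic cells minus macrophages.

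The log2 KO over WT ratio of the summed mitosis genes was -0.208 in dendritic cells without scaling factors, and by the mean of log2 CPM it was -0.255 in dendritic cells, -0.43 in macrophages (0.278 for the sum) and 0.015 in CD4 T cells. For replication genes it was 0.079 in B cells by the mean of log2 CPM and -0.123 in dendritic cells without scaling factors.

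With 1 library left out, 2 to 3 rose and 0 to 1 fell in KO B cells, 1 to 2 rose and 0 to 2 fell in dendritic cells, 0 to 3 rose and 0 to 3 fell in macrophages, and 0 to 3 rose in CD4 T cells. WT T cells against dendritic cells had 38 to 39 up and 1 to 2 down, B cells against T cells 6 to 8 each way, dendritic cells against macrophages 26 to 29 up and 6 to 7 down, and 2 to 11 effects differed between cell types. The summed mitosis ratio in macrophages ran from 0.067 to 0.686. Over all genes, 1260 were called in B cells with the block, 501 without a filter, 81 in the fit of 24 libraries and 141 to 441 with 1 library left out. Dendritic cells had 1176 to 2870 with 1 library left out. Macrophages had 1755 in the fit of 24 libraries, 544 with DESeq2 and 0 to 2746 with 1 left out, and CD4 T cells had 478 without a filter, 63 in the fit of 24 libraries and 32 to 598 with 1 left out. The causes were not tested. Low counts limit the mitosis genes in the myeloid cells.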
